A study of Homo sapiens with 6 samples.

Results

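The 10 genes described here encode the soluble factors that run protein synthesis inside mitochondria: the initiation factors MTIF2 and MTIF3, the elongation factors TUFM, TSFM and GFM1, the elongation factor relative GUF1, the release factors MTRF1L and MTRF1, and the recycling factors MRRF and GFM2. They were taken by symbol from a table of 58243 genes. All 10 matched 1 gene each, and all 10 passed the filter on low counts that left 18679 genes for testing. The set was chosen by function around GFM2, which had itself been selected on its fall between the groups in these data, so the difference between the groups is given for the 10 genes as a description, and nothing is supported with it.

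RNA of cells labelled Hep3B, a line from a human hepatocellular carcinoma, was sequenced in bulk after the cells had received si-SNHG17-1, a small interfering RNA (siRNA) directed at SNHG17, a long noncoding RNA, or the control siRNA si-NC. There were 3 libraries in each of these 2 groups. Nothing says that they are separate cultures, so a p-value here speaks of the spread among libraries, possibly a technical one. Only this siRNA against SNHG17 was used, and neither its sequence nor its dose nor the time of harvest is stated in the sources used here. Libraries held 30207055 to 41620321 counts after si-SNHG17-1 and 38245838 to 42271168 after si-NC. SNHG17 was at 8.03, 8.02 and 8.27 CPM (counts scaled to a common library total, with TMM factors) after si-SNHG17-1, against 22.4, 22.8 and 23.9 CPM after si-NC. It was lower in each si-SNHG17-1 library than in any si-NC library (log2 fold change −1.51, edgeR quasi-likelihood test, adjusted p = 0.00101). The liver products AFP, ALB, APOA1, APOB, SERPINA1 and TF reached at most 0.955 CPM in any library, and TTR and GPC3 had 0 counts, for which 0.0977 CPM is the limit in the shallowest library (3 counts), so the defining markers of the labelled line were nearly or wholly absent.

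Human mitochondria keep a small genome that encodes core subunits of the respiratory chain, and they translate its messenger RNAs on their own ribosomes. Every protein factor of this system is encoded in the nucleus, made in the cytosol and imported. MTIF2 and MTIF3 place the start codon and the initiator tRNA, TUFM delivers charged tRNAs and is recharged by TSFM, GFM1 moves the ribosome along, MTRF1L frees the finished chain at stop codons, and MRRF together with GFM2 splits the ribosome for another round. GFM1 and GFM2 are both relatives of bacterial elongation factor G that have divided translocation and recycling between them. All 37 genes of the mitochondrial chromosome, whose messages these factors serve, were listed at 0 in every library, so the factors could be followed but not their templates.

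GFM2 occupies the minus strand of chromosome 5 between 74721204 and 74767371 (GRCh38, the build of all positions here). NSA2, a ribosome biogenesis gene, lies on the opposite strand. In the exons of the GENCODE annotation, the first exon of GFM2 overlaps that of NSA2. Their RefSeq start sites are 132 bp apart, at 74767117 (GFM2) and 74767249 (NSA2), and the genes run away from each other from there. Transcripts that begin at these sites therefore do not overlap. The promoter windows of GFM2 and NSA2 (250 bases before to 50 after the start, GRCh38.p14) share 231 bases. Both windows are shown because the genes share this region and differed in the size of their change. Capitals mark CCGGAAG, or CTTCCGG on the other strand, the core recognised by ETS family factors such as GABP, a known regulator of genes for mitochondrial proteins.

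GFM2 promoter, chr5:74767068-74767367, minus strand: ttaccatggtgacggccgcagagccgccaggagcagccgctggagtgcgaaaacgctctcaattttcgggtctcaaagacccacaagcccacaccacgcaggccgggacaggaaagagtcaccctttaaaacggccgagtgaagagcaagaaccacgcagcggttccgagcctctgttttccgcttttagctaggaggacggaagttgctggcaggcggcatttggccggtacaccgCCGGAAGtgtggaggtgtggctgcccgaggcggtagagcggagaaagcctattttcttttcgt

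NSA2 promoter, chr5:74766999-74767298, plus strand: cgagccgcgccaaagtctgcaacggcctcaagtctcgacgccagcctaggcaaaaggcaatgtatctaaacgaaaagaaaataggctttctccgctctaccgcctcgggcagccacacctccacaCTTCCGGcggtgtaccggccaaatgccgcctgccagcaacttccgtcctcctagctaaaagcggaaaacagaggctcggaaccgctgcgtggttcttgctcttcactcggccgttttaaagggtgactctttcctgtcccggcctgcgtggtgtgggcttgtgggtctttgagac

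The capitals in both windows are the same site, 13 bases before the GFM2 start and 125 bases before the NSA2 start. The ETS core was present, on either strand, in the RefSeq promoters of 7 of the 10 factor genes (MTIF2, GFM1, GUF1, GFM2, MTRF1L, MTRF1 and TUFM), and not in the windows of MRRF, TSFM and MTIF3. It was held by 10.3% of 35116 RefSeq promoters and by 15.5% of the 16391 that belong to tested genes. Other motifs tied to mitochondrial genes were also searched on both strands. The core GCGCANGCG of NRF1 was in the MTRF1L promoter alone of the 10. It was held by 7.52% of all promoters and by 11.83% of those of tested genes. The YY1 core ANATGGCGG and the ERR motif TCAAGGTCA were in none of the factor promoters. They were in 2.75% and 0.35% of all promoters, and in 4.5% and 0.23% of those of tested genes. These NRF1 and YY1 letters are shortened versions, taken after a search with longer ones (10 and 11 bases) had been seen; the longer NRF1 and YY1 motifs were in 5.78% and 1.44% of all promoters and in 0 of the 10 factor genes, so the MTRF1L match rests on the shorter form. MTRF1 has 2 RefSeq starts, of which 1 held the ETS core, and no motif searched overlapped another in the windows shown. A match is only a match of letters, and its absence says nothing of the factor.

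GFM2, which with MRRF releases the ribosome after a chain is finished, had by far the lowest log2 fold change of the 10 factor genes. Its counts were 911, 1078 and 791 after si-SNHG17-1, against 2715, 2846 and 2876 after si-NC. In CPM it stood at 23.8, 25.6 and 25.8 after si-SNHG17-1, against 72.1, 68.2 and 72.5 after si-NC. The highest si-SNHG17-1 library was far under the lowest si-NC library, and the spread within each group was small. The means were 25.1 ± 1.06 CPM after si-SNHG17-1 and 70.9 ± 2.40 CPM after si-NC (SD, n = 3 each), so that 35.3% of the si-NC level was left. The log2 fold change was −1.50 (SE, the standard error, 0.09), and it lay between −1.53 and −1.46 in the fits with any 1 library left out. It was called (adjusted p under 0.05 over all genes tested) in every one of these fits. For a gene selected on its fall in these libraries this was likely, and nothing is supported with it. Among all 18679 genes 214 had a lower log2 fold change than GFM2, of which 44 were called. In bulk RNA, fewer cells that express a gene and less of its RNA per cell cannot be told apart.

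MRRF, the ribosome recycling factor that acts with GFM2, differed far less between the groups. It was at 42.9, 43.9 and 46.5 CPM after si-SNHG17-1, against 59.1, 55.9 and 49.3 CPM after si-NC. The groups did not overlap, but si-NC replicate 3 came close to the si-SNHG17-1 libraries and the gene was not called (log2 fold change −0.30, SE 0.10). MRRF lies on chromosome 9 from 122264603 to 122331343.

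**Figure D1:**
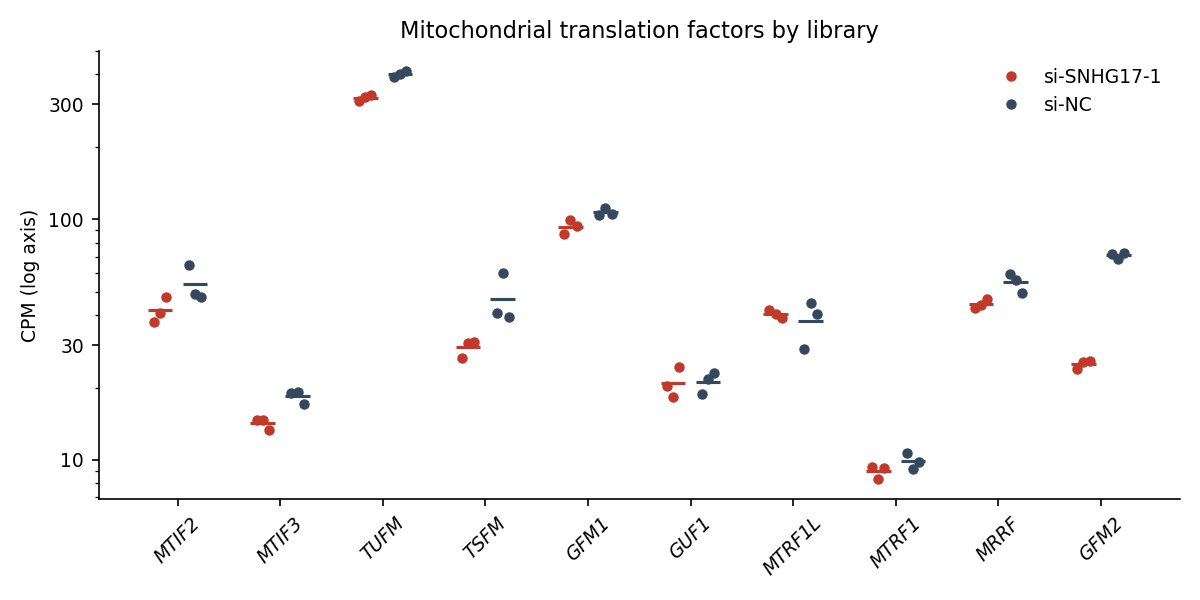
TMM-scaled CPM (log axis) of the 10 mitochondrial translation factor genes in each library, in the order of initiation, elongation, release and recycling; points are libraries (si-SNHG17-1 red, si-NC dark) and bars are group means. GFM2, at the right, is the gene whose groups lie furthest apart, with means of 25.1 CPM after si-SNHG17-1 and 70.9 CPM after si-NC.

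The initiation factors were both somewhat lower without being called. MTIF2, the GTPase that brings the initiator tRNA to the ribosome (chromosome 2, 55236595 to 55269347), was at 37.4, 40.7 and 47.6 CPM after si-SNHG17-1, against 64.3, 48.9 and 47.8 CPM after si-NC. The groups nearly met, and si-NC replicate 1 stood above the rest (log2 fold change −0.36, SE 0.15). MTIF3, which keeps the ribosomal subunits apart until initiation (chromosome 13, 27435643 to 27450591), was at 14.6, 14.6 and 13.3 CPM after si-SNHG17-1, against 19.1, 19.1 and 17.1 CPM after si-NC. Its groups did not overlap (log2 fold change −0.38, SE 0.12).

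Of the elongation factors TUFM was called lower. TUFM, the mitochondrial elongation factor Tu (chromosome 16, 28842411 to 28846408), was the most abundant of the 10 genes, with 309, 322 and 327 CPM after si-SNHG17-1, against 389.6, 403 and 413 CPM after si-NC. The groups were well apart although the fall was small: the means were 319.7 ± 9.36 CPM after si-SNHG17-1 and 402 ± 11.5 CPM after si-NC (SD, n = 3 each), with a log2 fold change of −0.33 (SE 0.06). The call was lost without si-SNHG17-1 replicate 1, 2 or 3, with log2 fold changes of −0.30, −0.33 and −0.33, and was kept without any 1 si-NC library.

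TSFM, the exchange factor that recharges TUFM (chromosome 12, 57782589 to 57808071), had the lowest log2 fold change after GFM2. It was at 26.5, 30.7 and 31.0 CPM after si-SNHG17-1, against 40.8, 60.1 and 39.2 CPM after si-NC. Each si-SNHG17-1 library was below each si-NC library, and si-NC replicate 2 was well above the other si-NC libraries (log2 fold change −0.67, SE 0.18). The edgeR test did not call TSFM and DESeq2 did. Without si-NC replicate 2 the log2 fold change was −0.45.

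GFM1, the translocase of the elongation cycle (chromosome 3, 158644278 to 158692575), was at 87.1, 99.1 and 93.8 CPM after si-SNHG17-1, against 104, 112 and 105 CPM after si-NC. The groups did not overlap, but lay close together, and GFM1 was not called (log2 fold change −0.20, SE 0.08). GUF1, a relative of bacterial LepA (chromosome 4, 44678427 to 44700926), was at 20.4, 18.2 and 24.3 CPM after si-SNHG17-1, against 18.9, 21.6 and 23.0 CPM after si-NC. Its groups overlapped throughout, and its log2 fold change of −0.02 (SE 0.15) changed sign to 0.03 when libraries were scaled by total counts.

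Neither release factor was called. MTRF1L, the main release factor (chromosome 6, 152987362 to 153002685), was at 42.1, 40.5 and 38.8 CPM after si-SNHG17-1, against 28.9, 44.7 and 40.3 CPM after si-NC. It was the single factor gene with a positive log2 fold change in the edgeR fit of all libraries with TMM (0.09, SE 0.16). GUF1 was positive with total counts, and without si-SNHG17-1 replicate 1 or 2 or si-NC replicate 3. The MTRF1L value became −0.07 without si-NC replicate 1, its lowest library. The antisense gene AL080276.2 shares 1487 exonic bases with it (34.8% of the MTRF1L exons) and was lowest in the same library. It had 14.5, 11.5 and 14.3 CPM after si-SNHG17-1, against 6.21, 15.5 and 11.9 CPM after si-NC, and its part in the MTRF1L values was not tested. MTRF1, a close relative of MTRF1L (chromosome 13, 41216369 to 41263577), was the least abundant of the 10, with 9.34, 8.36 and 9.25 CPM after si-SNHG17-1, against 10.7, 9.20 and 9.79 CPM after si-NC. Its groups overlapped (log2 fold change −0.14, SE 0.14).

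**Figure D2:**
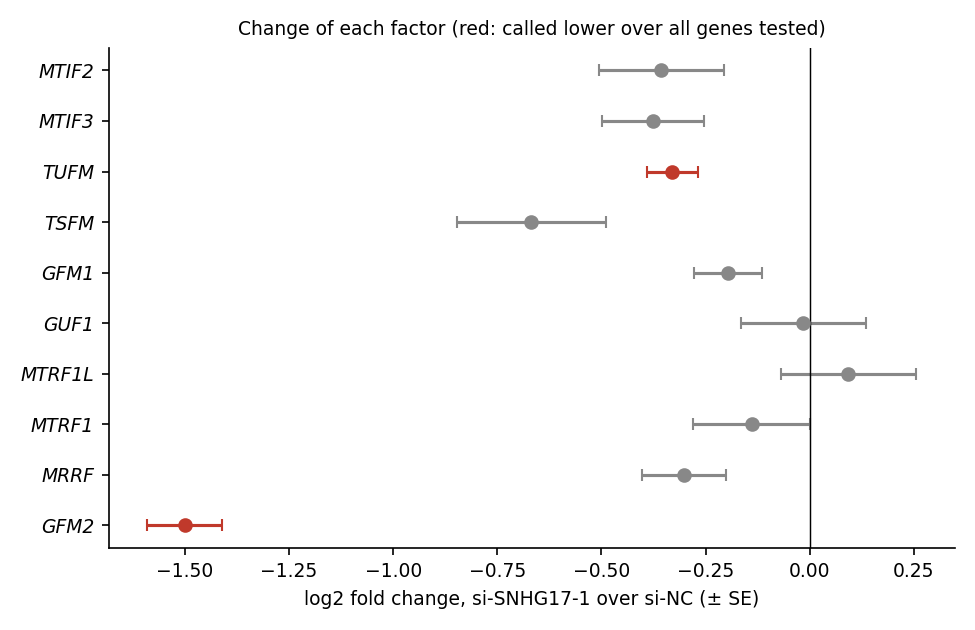
Log2 fold change, si-SNHG17-1 over si-NC, of each factor gene with its standard error from the edgeR fit over all genes; red marks genes called lower. GFM2 lies at −1.50 and the other 9 genes between −0.67 and 0.09.

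In all, 2 of the 10 factor genes were called lower and none higher, where 5.21% of all genes tested were called lower and 5.25% higher. Since the genes were chosen with this contrast known, nothing is read from these shares. The groups did not overlap for 7 of the 10, all 7 lower after si-SNHG17-1, where 17.3% of all genes tested were lower with no overlap and 16.4% higher. The median log2 fold change of the 10 genes was −0.32, and −0.30 without GFM2, beside −0.00 over all genes tested.

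Levels can be compared between the factor genes only per length, here as CPM per kb of annotated exon. TUFM led in every library, with 140.8 ± 4.12 CPM per kb after si-SNHG17-1 and 177 ± 5.08 after si-NC (SD, n = 3 each). After si-NC, GFM2 (16.9 ± 0.571), MTIF2 (15.9 ± 2.74) and TSFM (15.1 ± 3.75) came next and lay within their spread of each other. GFM1 (11.8 ± 0.477) and MTIF3 (11.5 ± 0.720) followed, also within their spread, and then MTRF1L (8.88 ± 1.91). After si-SNHG17-1, GFM2 stood at 5.97 ± 0.253 CPM per kb, under MTIF2 (12.4 ± 1.55), GFM1 (10.3 ± 0.662), TSFM (9.50 ± 0.824), MTRF1L (9.47 ± 0.385) and MTIF3 (8.84 ± 0.483), which in part overlapped each other. GFM2 thus ranked 7 of 10 in each si-SNHG17-1 library, and 3, 3 and 2 of 10 in si-NC replicates 1, 2 and 3. GUF1 and MRRF lay below GFM2 in both groups and close to each other, with means of 4.71 ± 0.690 (GUF1) and 4.03 ± 0.166 (MRRF) after si-SNHG17-1 and 4.75 ± 0.475 (GUF1) and 4.96 ± 0.449 (MRRF) after si-NC. MTRF1 was lowest in every library, with 2.34 ± 0.142 after si-SNHG17-1 and 2.58 ± 0.197 after si-NC.

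**Figure D3:**
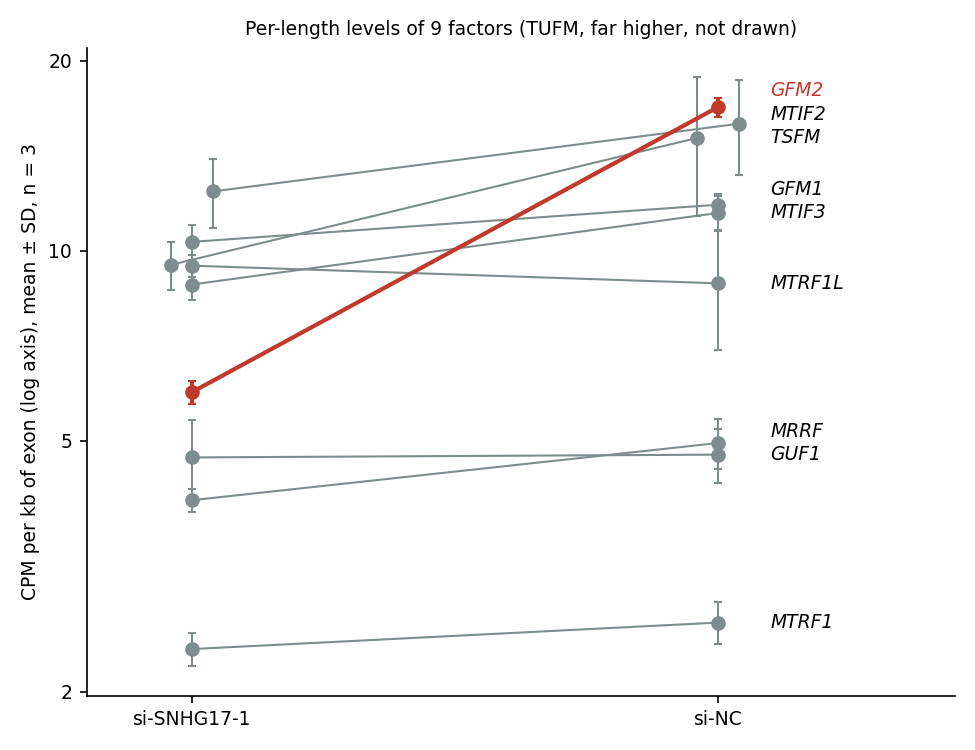
Level per length (CPM per kb of exon, log axis, mean ± SD of 3 libraries) of 9 factor genes after si-SNHG17-1 (left) and si-NC (right), joined by gene. GFM2, in red, stands at 5.97 after si-SNHG17-1 and 16.9 after si-NC and is the gene with the steepest line.

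The balance between GFM2 and its partners differed accordingly. Per kb, MRRF stood at 0.685, 0.652 and 0.686 times GFM2 after si-SNHG17-1, against 0.312, 0.312 and 0.259 times after si-NC. GFM1, the translocating relative, stood at 1.70, 1.80 and 1.69 times GFM2 after si-SNHG17-1, against 0.670, 0.762 and 0.672 times after si-NC. Both ratios were higher in each si-SNHG17-1 library than in any si-NC library. GFM2 is the denominator of both, so this restates its fall, on which it had been selected. Which of GFM1 and GFM2 is higher after si-NC depends on the length used: with the longest APPRIS principal transcript in place of all exons, GFM1 had 28.7 CPM per kb and GFM2 21.8 after si-NC.

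NSA2, which encodes a protein of ribosome biogenesis, was measured too, since reads may be mixed where exons of neighbouring genes overlap. In the GENCODE exons it shares 373 bases with GFM2 at its start (8.89% of the GFM2 exons). Transcripts that begin at the RefSeq starts do not share them. NSA2 was at 121.7, 115 and 116 CPM after si-SNHG17-1, against 149.8, 161 and 148 CPM after si-NC. It was lower in each si-SNHG17-1 library, by a log2 fold change of −0.38 (SE 0.07, edgeR adjusted p = 0.0194), closer to 0 than that of GFM2. The NSA2 call was lost without si-SNHG17-1 replicate 1, 2 or 3 (adjusted p = 0.0771, 0.0892 and 0.0878) and without si-NC replicate 2 (0.0541).

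**Figure D4:**
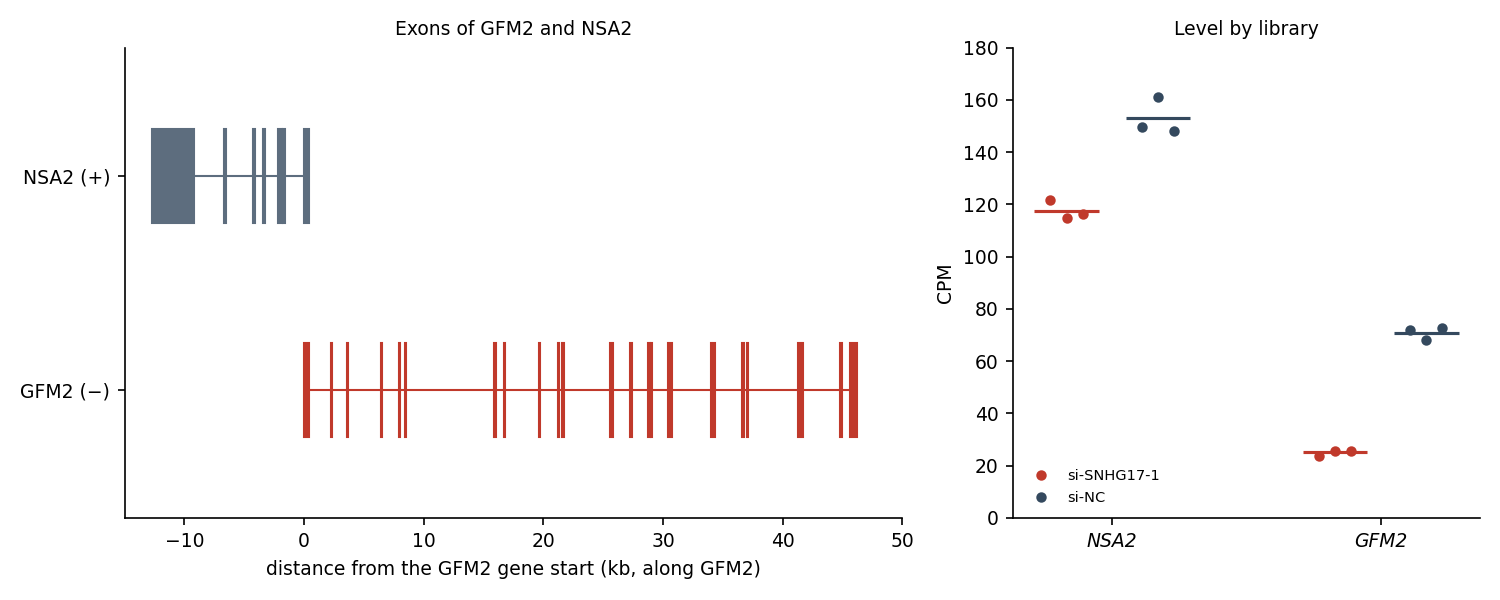
Left, exons (boxes) of NSA2 and GFM2 by distance in kb from the GFM2 gene start, along GFM2; right, TMM-scaled CPM of the same genes by library, with group means as bars. In the GENCODE exons drawn, GFM2 meets NSA2 at its start. The GFM2 groups, with means of 25.1 CPM after si-SNHG17-1 and 70.9 CPM after si-NC, lie further apart than those of NSA2.

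Other factor genes also overlap a neighbour in the GENCODE exons. AVIL, which encodes the actin-binding protein advillin, shares 303 exonic bases with TSFM (9.79% of the TSFM exons). It was at 1.26 to 1.53 CPM after si-SNHG17-1 and 1.54 to 4.24 CPM after si-NC. Its groups did not overlap, and its log2 fold change of −1.03 (SE 0.38) was not called. Without si-NC replicate 1 it was called (−1.34). The part of AVIL in the TSFM values was not tested. GTF3A, a transcription factor gene for 5S ribosomal RNA, shares 181 bases with MTIF3 (11.3% of the MTIF3 exons). It had 1606 to 2626 counts per library, more than MTIF3 in each, and a log2 fold change of 0.32 (SE 0.14), which was not called; its part in the MTIF3 values was not tested. LXN with GFM1, RBM18 with MRRF and GNPDA2 with GUF1 share 45, 125 and 78 exonic bases, and their log2 fold changes of −0.43, 0.47 and 0.02 were not called. The named pseudogenes MRRFP1, MTRF1LP1 and MTRF1LP2 had at most 2 counts in any library. Leaving aside overlapping genes that are not reported here, 9 others had at most 60.

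Among the 5 genes whose pattern over the 6 libraries was most like that of GFM2, by the root-mean-square distance between mean-centred log2 CPM values out of 15309 named genes, were SNHG17 (distance 0.05), BASP1 (0.07), AKR1C1 (0.08) and TPP1 (0.11). SNHG17 itself, the target of the siRNA, was thus the nearest. BASP1, a membrane-bound signalling protein gene, had a log2 fold change of −1.38 (SE 0.06). TPP1, a lysosomal peptidase gene, was at 59.3, 62.1 and 55.3 CPM after si-SNHG17-1, against 185, 164 and 154 CPM after si-NC. AKR1C1, an aldo-keto reductase gene with near-identical paralogs and therefore uncertain counts, was at 19.3, 18.6 and 21.5 CPM after si-SNHG17-1, against 52.4, 56.2 and 56.0 CPM after si-NC. Since the libraries fall into 2 groups, a small distance mainly means a like difference between the groups.

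Other genes of the mitochondrial translation system had log2 fold changes closer to 0 than that of GFM2. Their counts below stand beside the 5.21% of all genes tested that were called lower, the 5.25% called higher, the 50.2% with a negative log2 fold change and the median of −0.00. Of 14 genes for formylation of the initiator tRNA, RNA processing, ribosome rescue, translation activation and membrane insertion, 3 were called lower and none higher (median log2 fold change −0.31). OXA1L, which inserts newly made proteins into the inner membrane, fell to 124.5 ± 12.9 CPM after si-SNHG17-1, against 206 ± 20.1 CPM after si-NC (SD, n = 3 each; log2 fold change −0.73, SE 0.11, edgeR adjusted p = 0.00792). SLIRP, a partner of LRPPRC in the stability of mitochondrial messages, fell to 18.4 ± 1.64 CPM after si-SNHG17-1, against 31.8 ± 5.93 CPM after si-NC (SD, n = 3 each; −0.79, SE 0.16, edgeR adjusted p = 0.0234). PDF, the peptide deformylase gene, was the third (−0.61, SE 0.14, edgeR adjusted p = 0.0352). OXA1L was still called whichever of the 6 libraries was left out. SLIRP was called in 2 of these fits, without si-NC replicate 1 or 2, and PDF in none, with adjusted p up to 0.0967 for SLIRP (without si-SNHG17-1 replicate 3) and up to 0.122 for PDF (without si-SNHG17-1 replicate 1).

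Mitochondrial ribosomal protein genes followed with many small negative values. Of 82, 11 were called lower and none higher, where 5.21% of all genes tested were called lower. Of the 82, 68 had a negative log2 fold change (67 with total counts), where 50.2% of all genes tested had one, and their median was −0.24. The lean was not particular to this list. Negative values were held by 12 of the 14 formylation, rescue and activation genes and 18 of 25 assembly genes. They were also held by 11 of 14 cytosolic counterparts. Of 20 tRNA charging genes 12 had a negative value (11 with total counts), close to the 50.2% of all genes tested. MRPL33, of the large subunit, fell to 58.2 ± 0.737 CPM after si-SNHG17-1, against 84.3 ± 4.56 CPM after si-NC (SD, n = 3 each; log2 fold change −0.54, SE 0.08, edgeR adjusted p = 0.00833), and kept its call with any 1 library left out. MRPS15, of the small subunit, had a log2 fold change of −0.57 (SE 0.09, edgeR adjusted p = 0.00865), and missed the threshold without si-SNHG17-1 replicate 2 or 3 (0.0511 and 0.0504). The number called was 2, 1 and 2 without si-SNHG17-1 replicates 1, 2 and 3, and 7, 6 and 4 without si-NC replicates 1, 2 and 3.

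Genes that build the mitochondrial ribosome and charge its tRNAs were mostly not called. Of 25 assembly and ribosomal RNA modification genes, MRM2, a methyltransferase of mitochondrial ribosomal RNA, fell (−0.43, SE 0.11, edgeR adjusted p = 0.0446) and RCC1L, an assembly factor, rose to 73.0 ± 4.63 CPM after si-SNHG17-1, against 51.9 ± 3.13 CPM after si-NC (SD, n = 3 each; 0.49, SE 0.09, edgeR adjusted p = 0.0180). The median of the list was −0.16. Of 20 genes for mitochondrial tRNA charging, MARS2, the methionyl-tRNA synthetase, was called lower (−0.65, SE 0.12, edgeR adjusted p = 0.0184) and none higher, with a median of −0.05. Log2 fold changes in this list reached 0.40 without a call. These calls were easily lost: MRM2 kept its call with 1 of 6 libraries left out (si-NC replicate 1, adjusted p up to 0.163 otherwise), MARS2 likewise with 1 of 6 (si-NC replicate 1, up to 0.0790), and RCC1L lost it without si-SNHG17-1 replicate 1, 2 or 3 (0.0534, 0.0708 and 0.0734).

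Cytosolic counterparts of the factors were tested for comparison. Of 14 tested (GSPT2 did not pass the filter), EEF1B2, an exchange factor subunit that recharges cytosolic elongation factor 1A as TSFM does for TUFM, fell to 161 ± 4.85 CPM after si-SNHG17-1, against 216 ± 6.92 CPM after si-NC (SD, n = 3 each; log2 fold change −0.42, SE 0.07, edgeR adjusted p = 0.0100). It lost the call without si-SNHG17-1 replicate 1 or 3 (0.0654 and 0.0554). EEF1A2 rose by 0.33 on the log2 scale (SE 0.08, edgeR adjusted p = 0.0494) and kept its call with only si-NC replicate 1 left out (adjusted p up to 0.128 otherwise). It is a close paralog of EEF1A1, and mixing of reads between these genes was not tested. The list's median was −0.11.

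**Figure D5:**
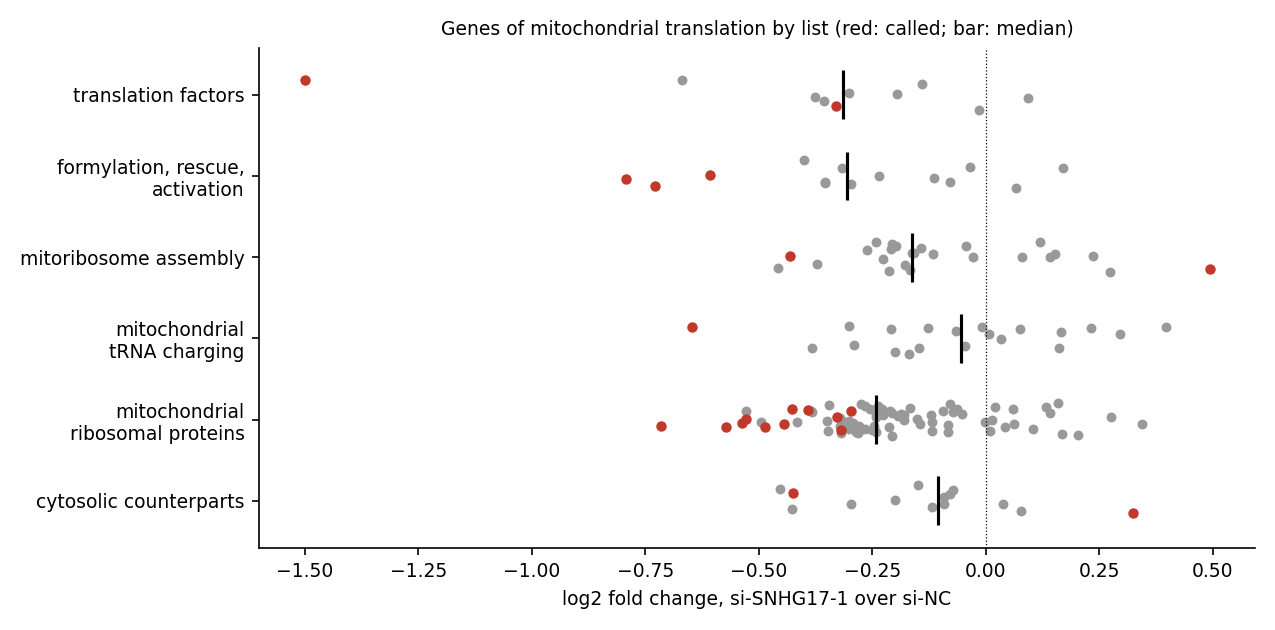
Log2 fold change, si-SNHG17-1 over si-NC, of every tested gene in the list of mitochondrial translation factors and in 5 related lists, with called genes in red and each median as a bar; the vertical scatter within a list has no meaning. GFM2, at −1.50, lies apart from every other gene shown, of which the lowest is SLIRP at −0.79.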

How the data were processed

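The authors deposited unnormalised integer counts for each gene in 1 table. HISAT2 was the aligner and GRCh38 the build, per the submitters' processing notes. No source used here names the counting program, annotation or strand setting, so reads of overlapping genes may be mixed. Groups and replicate numbers came from the titles. Counts were tested with edgeR 4.0.16 in R 4.3.3 (filterByExpr with a minimum count of 10 and total of 15, TMM, quasi-likelihood F test without a replicate block) on all genes, with Benjamini-Hochberg adjustment over all 18679 tested, and genes were called at an adjusted p under 0.05. Standard errors were taken from the size of the log2 fold change over the root of the F statistic. The script was tested on simulated data. Its limit for the share of changed genes recovered was lowered after a first run missed it, mainly for the smaller changes. From then on the limit applied only to changes above 1 on the log2 scale, so no recovery was required for smaller ones. Alternatives were scaling by median-of-ratios factors or by total counts, no filter, 1 CPM in at least 3 libraries, DESeq2 1.42.0, limma-voom (limma 3.58.1), a replicate block and each library left out. A floor of 3 counts equals 0.0712 to 0.0977 CPM and covers counting error only. Exon lengths came from GENCODE release 29, in which 57980 of 58243 table genes were found and whose spans of the 10 factor genes are identical, and promoters from RefSeq (GRCh38.p14), in which all 10 were matched. Named genes are the 10 factor genes, SNHG17, genes overlapping them, up to 2 called genes per direction from each related list and the 5 patterns nearest to GFM2. PDF was named after its value was seen. Some genes and a sequence that these rules name are not reported here. The members and lists were chosen with earlier results of these data known.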

Additional observations from a re-analysis of the deposited data

How the results depend on the processing

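GFM2 kept its direction and its call under all 13 alternatives, with adjusted p from 3.537e-34 (DESeq2) to 0.0132 (replicate block). Since GFM2 had been selected on its fall in these same libraries, keeping the call was likely, and nothing is supported with it. The number of genes called, 1954, was 1297 with no filter, 532 with the replicate block and 577 to 1399 with 1 library left out, where each fit has fewer samples. DESeq2 called 2818 of the 16787 genes to which it gave an adjusted p, so its calls were more frequent over the whole table too. Of the 10 factor genes 1 (GFM2) was called with the replicate block and 1 to 2 with a library left out. The formylation, rescue and activation list had 5 calls by DESeq2, 1 with the replicate block and 1 to 2 with a library left out. The assembly list had 1 with total counts, 1 with no filter, 0 with the block and 0 to 2 with a library left out. The tRNA charging list had 2 by DESeq2, 0 with the block and 0 to 1 with a library left out. The ribosomal protein list had 7 with no filter, 0 with the block and 1 to 7 with a library left out. The cytosolic list had 1 with no filter, 0 with the block and 0 to 2 with a library left out. The cause of these differences was not tested. Same-numbered libraries did not deviate together (correlations of −0.02, −0.04 and −0.02, and none correlated best with its own number). These correlations gave no sign of a pairing by number. Whether same-numbered libraries share a culture or a batch was not tested. The log2 fold change of GUF1 was 0.026 with total counts and ranged from −0.12 to 0.082 with a library left out. In the same fits MTRF1L ranged from −0.071 to 0.23, AL080276.2 from −0.030 to 0.57, GNPDA2 from −0.13 to 0.26 and YIPF7, a GUF1 neighbour with at most 15 counts in any library, from −1.27 to 0.43. By length of the longest APPRIS principal transcript, a choice made after seeing the data, GFM2 ranked 3 of 10 rather than 2 after si-NC and 7 of 10 either way after si-SNHG17-1. Depth limits genes near the filter, such as YIPF7, more than the factor genes, each of which had at least 284 counts in every library.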
